A study of Mus musculus with 35 samples.

Results

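Translation efficiency, the number of ribosome footprints on an mRNA relative to the amount of that mRNA, was compared between treated and vehicle mice carrying sgScramble leukemia cells. The mice were those with a footprint and an RNA library of the same library number: 4 treated mice (replicates 1, 2, 3 and 5) and 3 vehicle mice (replicates 2, 3 and 5), which gave 14 of the 35 libraries of the series. Of 55487 genes listed, 21974 were protein-coding, and 11176 of these had enough counts in both assays to be tested.

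Treated mice received a diet free of branched-chain amino acids (BCAA) plus 5+3 chemotherapy, that is, cytarabine at 100 mg/kg daily for 5 days with doxorubicin at 3 mg/kg on the first 3 of them. Vehicle mice received the standard amino acid (AA) diet and PBS. Diet and drugs were given together, so their effects cannot be told apart. All recipients were male, 8 to 10 weeks old, and had been injected with MLL-AF9 acute myeloid leukemia cells expressing GFP, which came from 1 terminally ill mouse and were expanded in culture. All cells of these groups carried a scrambled guide RNA. At the time of strongest response to chemotherapy, marrow was taken and its GFP-expressing cells sorted, and each cell lysate of 20 µl gave 2 µl to Smart-seq2, a full-length mRNA protocol, and the rest to ribosome profiling. The labels call the replicates biological. A second set of mice, with a guide against the ribosomal protein hydroxylase Ogfod1, had both assays in 2 treated and 3 vehicle animals and is used as a comparison.

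Ribosome profiling sequences the short piece of mRNA that a ribosome shields from nuclease. The rate at which ribosomes load onto an mRNA, and the time they spend on it, both set the number of footprints. Cells short of amino acids are known to lower mTORC1 signalling, which acts strongly on mRNAs that begin with a terminal oligopyrimidine (TOP) tract, such as those of ribosomal proteins, and to activate eIF2 kinases, under which mRNAs with upstream reading frames such as Atf4 keep being translated. A footprint-to-RNA ratio is relative within each library, so a change in total protein synthesis is not seen by it.

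The 7 sgScramble mice had 7.64 to 10.1 M footprint counts in the treated group and 7.90 to 9.47 M in the vehicle group. RNA libraries held 56.1 to 79.6 M counts in treated mice and 49.2 to 58.9 M in vehicle mice. Protein-coding genes took 47.7 to 51.2% of footprint counts in treated mice and 53.7 to 56.6% in vehicle mice. Pseudogenes took 23.4 to 27.2% of footprint counts in treated mice and 24.8 to 25.6% in vehicle mice. In the RNA libraries of these mice they took 0.31 to 0.426%. Footprints of a gene with similar pseudogenes may be counted on either, and the effect on the ratios of single genes below was not tested. The leukemia genes Hoxa9 and Meis1 were detected in every RNA library, at 202 to 273 CPM (counts relative to the protein-coding counts of the library, TMM-scaled) and 213 to 255 CPM in treated mice, against 196 to 214 CPM and 171 to 208 CPM in vehicle mice. Among other myeloid and progenitor genes, Hoxa10, Itgam and Spi1 were higher in every treated mouse than in every vehicle mouse, and Myb overlapped. Kit and Csf1r were lower, at 68.8 to 140 CPM and 51.1 to 75.5 CPM in treated mice, against 229 to 300 CPM and 135 to 147 CPM in vehicle mice. Summed RNA of 16 neutrophil markers was 24500 to 52200 CPM in treated mice and 15400 to 16300 CPM in vehicle mice. Of the 16, 10 were called higher (62.5%, against 9.91% of all genes tested). Summed RNA of 16 macrophage markers was 1100 to 1620 CPM in treated mice and 995 to 1360 CPM in vehicle mice. Of the 12 tested, 9 were called higher (75%). For 12 megakaryocyte markers the sum was 35.9 to 49.4 CPM in treated mice and 14.3 to 17.3 CPM in vehicle mice, with 2 of the 5 tested called higher (40%). The RNA sums of erythroid, B and plasma, T and NK, stromal and endothelial, and basophil and mast cell markers overlapped between the groups. In bulk samples, a change in the number of cells of a type and a change in RNA per cell cannot be told apart. The part of such cells in the results below was not tested.

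Translation efficiency rose for 517 genes and fell for 586 in treated mice, together 9.87% of those tested (4.63% higher and 5.24% lower; edgeR quasi-likelihood test with the mouse as a block, Benjamini-Hochberg adjusted p under 0.05). The median change was 0.57 on the log2 scale among the genes that rose and -0.59 among those that fell. The ratios of the 4 treated and 3 vehicle mice did not overlap for 2707 genes, 24.2% of those tested. RNA itself was called for 2210 genes (19.8%; 9.91% higher and 9.87% lower) and footprints for 2040 (18.3%; 10% higher and 8.21% lower).

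The test depended on comparing both libraries of the same mouse. Without the mouse term, 63 genes were called higher and 58 lower, although the log2 changes correlated with the first ones at 0.986 over the genes. Leaving out vehicle replicate 2, 3 or 5 left 223, 249 or 243 genes higher and 232, 276 or 310 lower. Leaving out treated replicate 1 or 2 left 292 or 313 higher and 302 or 350 lower. With genes of every type in the fit, 191 protein-coding genes were higher and 521 lower, so that 26.8% of the calls were higher, against 46.9% with protein-coding genes alone.

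The changed ratios came with calls in RNA, in footprints or in neither. Of the 517 genes with higher translation efficiency, 177 had lower RNA and 8 had higher RNA, while 198 had more footprints and 14 had fewer. Of the 586 with lower translation efficiency, 217 had higher RNA and 7 had lower RNA, while 188 had fewer footprints and 22 had more. Neither assay alone passed the test for 148 of the genes with higher and 188 of those with lower translation efficiency. RNA calls numbered 1066, 1445 or 1223 without vehicle replicate 2, 3 or 5 and 1427 without treated replicate 2, and footprint calls 1239, 1069 or 1338 without vehicle replicate 2, 3 or 5. RNA is the denominator of the ratio, so a change in RNA alone moves the ratio the other way. RNA and footprint changes correlated across the 11176 genes, which are not independent replicates, with a Spearman rho of 0.512.

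**Figure D1:**
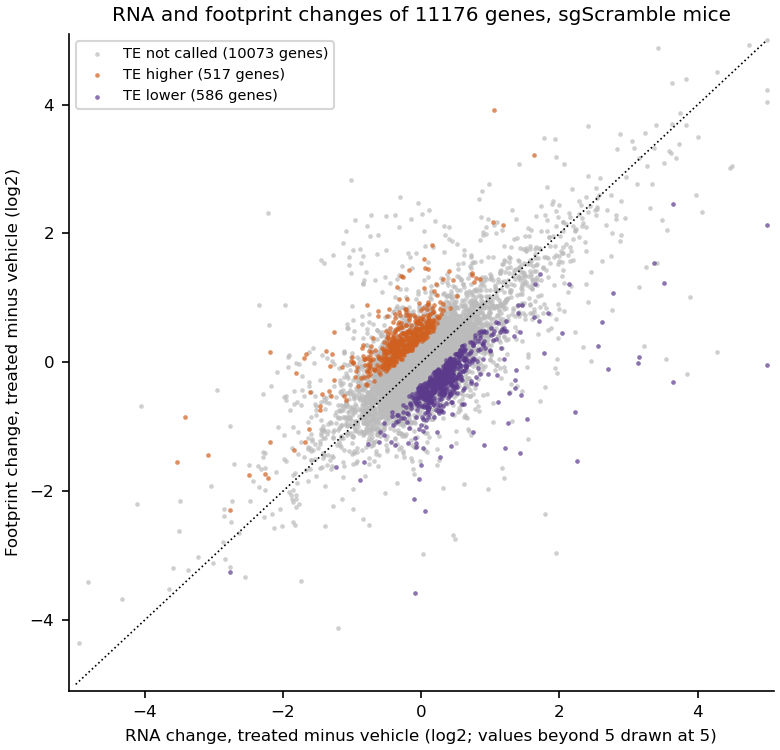
Log2 change of RNA (horizontal) against log2 change of footprints (vertical), treated minus vehicle sgScramble mice, 1 point per gene. Genes on the dotted diagonal changed equally in both assays. The 517 genes with higher translation efficiency lie above it and the 586 with lower translation efficiency below it.

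By the naming rule, which takes the largest changes with ratios that do not overlap, several very large structural proteins stood among the genes with higher translation efficiency. Macf1 (chromosome 4, 123349633 to 123684360, GRCm38), which links actin to microtubules, had footprint-to-RNA ratios of 1.45, 1.64, 1.45 and 1.65 in treated mice, against 0.641, 0.598 and 0.656 in vehicle mice. Its footprints were 78.2 to 95.8 CPM in treated mice and 46.1 to 48.6 CPM in vehicle mice. Its RNA moved the other way, at 47.6 to 65.8 CPM in treated mice and 72.2 to 78.4 CPM in vehicle mice. All 4 treated mice lay above all 3 vehicle mice in the ratio, as the naming rule required of every gene it took. The log2 change of translation efficiency was 1.30 ± 0.15 (SE; edgeR adjusted p = 3.5e-05).

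Syne2 (chromosome 12, 75818134 to 76110926), a nuclear envelope spectrin-repeat protein, had ratios of 1.07, 1.07, 1.24 and 0.953 in treated mice, against 0.563, 0.368 and 0.373 in vehicle mice. Neither its RNA nor its footprints passed the test alone (footprint change 1.45, edgeR adjusted p = 0.0537), and its translation efficiency changed by 1.37 ± 0.21 (edgeR adjusted p = 0.000459). Sptbn1, the membrane skeleton protein beta-spectrin, had ratios of 0.428, 0.326, 0.311 and 0.446 in treated mice, against 0.127, 0.128 and 0.113 in vehicle mice. Its footprints were 114 to 148 CPM in treated mice and 44.5 to 47.4 CPM in vehicle mice, its RNA did not pass the test, and the translation efficiency change was 1.62 ± 0.27 (edgeR adjusted p = 0.00564).

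In other named genes RNA fell. Ahnak, a giant scaffold protein, had 6.87, 10.3, 6.71 and 8.62 CPM of RNA in treated mice, against 34.3, 36.0 and 40.8 CPM in vehicle mice. Its footprints overlapped between the groups, at 64.7 to 98.9 CPM in treated mice and 66.5 to 79.6 CPM in vehicle mice, and its translation efficiency rose by 2.36 ± 0.41 (edgeR adjusted p = 0.0101). Fn1, the matrix protein fibronectin, fell in both assays, but more in RNA: RNA was 8.40 to 23.2 CPM in treated mice and 143 to 168 CPM in vehicle mice, and footprints were 11.6 to 36.6 CPM in treated mice and 47.9 to 64.5 CPM in vehicle mice. Its translation efficiency rose by 1.93 ± 0.18 (edgeR adjusted p = 3.39e-06). Snx30, a sorting nexin of the endosome, had ratios of 3.44 to 5.45 in treated mice and 1.14 to 1.403 in vehicle mice (1.76 ± 0.21, edgeR adjusted p = 4.47e-05).

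Other named genes with higher translation efficiency were Il31ra (a cytokine receptor, 1.87), Cd163 (a macrophage scavenger receptor, 1.59), Capn12 (a calpain protease, 1.57), Phka1 (a phosphorylase kinase subunit, 1.44) and Zfp763 (a zinc finger protein, 1.26), with the log2 change in brackets. Cd163 was low in vehicle mice, at 0.54 to 2.05 CPM of footprints, and it is among the macrophage markers summed above. Smart-seq2 keeps no strand, so exons shared with a gene on the other strand leave Capn12 (with Actn4) and Sptbn1 and Fn1 (with antisense genes) uncertain. Il31ra and Snx30 overlap pseudogenes on the same strand, which leaves them uncertain too. Footprints of Il31ra overlapped between the groups, at 92.1 to 146 CPM in treated mice and 102 to 116 CPM in vehicle mice. Its RNA was 2.47 to 7.82 CPM in treated mice and 13.4 to 17.65 CPM in vehicle mice, so its ratio rose with lower RNA. The rule asked for 5 CPM on average over the 7 mice, and 8 of the 24 genes had a mean under 5 CPM in 1 of the groups. Capn12 passed through the treated mice, with footprints of 2.34 to 3.06 CPM in vehicle mice, and Il31ra through the vehicle mice, with a mean RNA of 4.68 CPM in treated mice. Without vehicle replicate 2, Cd163 did not pass the test (1.203, edgeR adjusted p = 0.0986).

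Among the genes with lower translation efficiency, footprints of Dvl2 and Ptov1 fell, and their RNA was not called. Dvl2 (chromosome 11, 70000595 to 70012301), a Wnt signalling adaptor, had ratios of 0.223, 0.209, 0.216 and 0.164 in treated mice, against 0.494, 0.546 and 0.465 in vehicle mice. Its RNA was 30.6 to 36.3 CPM in treated mice and 32.5 to 34.04 CPM in vehicle mice, and its translation efficiency fell by 1.36 on the log2 scale (SE 0.18, edgeR adjusted p = 0.000111). Dvl2 shares exonic sequence with Acadvl on the opposite strand. Ptov1 had ratios of 0.123 to 0.243 in treated mice and 0.509 to 0.550 in vehicle mice (-1.59 ± 0.27, edgeR adjusted p = 0.000939).

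In others RNA rose without a call in footprints. Csf1, the growth factor of macrophages, had 16.2 to 28.2 CPM of RNA in treated mice and 4.94 to 5.69 CPM in vehicle mice, while footprints were 10.8 to 17.0 CPM in treated mice and 7.39 to 10.9 CPM in vehicle mice. Its translation efficiency changed by -1.55 ± 0.27 (edgeR adjusted p = 0.001). Jund, a subunit of the AP-1 transcription factor, had ratios of 0.281 to 0.406 in treated mice and 0.564 to 1.06 in vehicle mice (-1.29 ± 0.21, edgeR adjusted p = 0.000703). H2-Q10, Acta2, Ly6g and Ms4a6d have near-identical relatives that short footprints cannot tell apart, and their changes of -3.03, -1.65, -1.60 and -1.30 are uncertain for that reason. The list was completed by C1qc (a complement subunit and macrophage marker, -1.18), Csrnp1 (-1.18), Gtpbp3 (a mitochondrial tRNA-modifying enzyme, -1.15) and CAAA01118383.1 (-1.32), which lies on an unplaced scaffold. Without vehicle replicate 2, C1qc and Csrnp1 did not pass the test (edgeR adjusted p = 0.0618 and 0.136), nor did C1qc without vehicle replicate 5 (adjusted p = 0.197). Jund and Csrnp1 overlap antisense genes. C1qc passed the expression minimum through the treated mice only: its RNA was 14.9 to 25.2 CPM in treated mice and 1.33 to 1.92 CPM in vehicle mice, and its footprints were 9.81 to 17.1 CPM in treated mice and 1.80 to 3.12 CPM in vehicle mice. Vehicle mice also had a mean RNA under 5 CPM for Acta2, Csrnp1 and Gtpbp3, and treated mice a mean of 3.7 CPM of footprints for Ptov1.

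**Figure D2:**
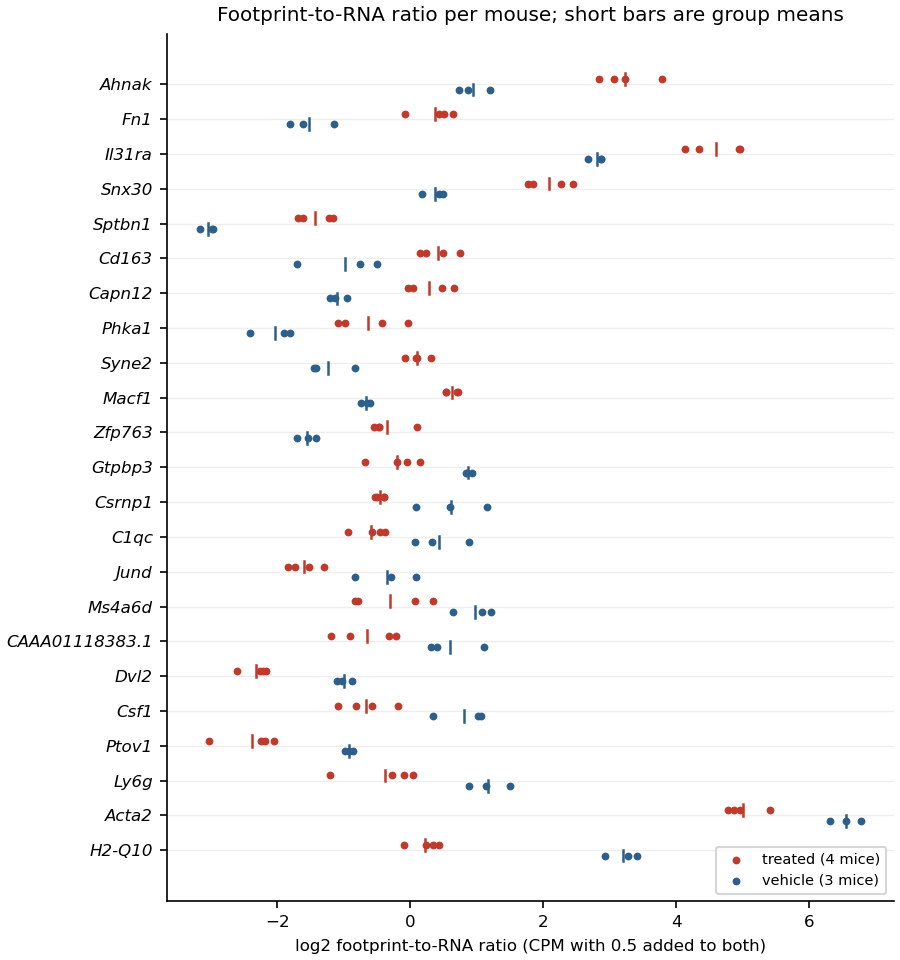
Log2 footprint-to-RNA ratio of 11 of the 12 genes with the largest rise and of the 12 with the largest fall, 1 point per mouse for 4 treated and 3 vehicle mice, with group means as short bars. The groups do not overlap for any of the 23 genes drawn, which the naming rule required.

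Across all genes, the change of translation efficiency followed the GC content of the mRNA. The Spearman rho between the log2 change and GC content was -0.556 over 11123 genes with an annotated mRNA. In the decile of lowest GC content (33 to 41.8%), 15.8% of genes rose and 0.269% fell, with a median change of 0.29. In the decile of highest GC content (58 to 72.9%), 0.18% rose and 21% fell, with a median of -0.41. The genes that rose had a median GC content of 43.4%, those that fell 57.2%, and all tested genes 50.2%.

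The relation had opposite signs in the 2 assays. RNA changes across genes had a rho of 0.298 with GC content and footprint changes a rho of -0.214. In each mouse the log2 ratio increased with GC content, by 0.0158, 0.0308, 0.0439 and 0.0285 per percent GC in treated mice, against 0.0608, 0.0601 and 0.0596 in vehicle mice. The slopes were lower in all 4 treated mice, with no overlap (exact permutation test over 7 mice, two-sided p = 0.0571, the smallest p this design allows, and 0.0714 after Benjamini-Hochberg adjustment over 5 features). GC content was added to the features after the data were seen, and the slopes come from the same mice as the rho of -0.556. This test is therefore no separate support for the trend. The slopes of RNA alone overlapped between the groups, and those of footprints alone did not.

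In sgOgfod1 mice the same relation was near zero, with a rho of 0.027, and slopes of 0.0441 and 0.0431 in treated mice, against 0.0372, 0.0345 and 0.0527 in vehicle mice. When the trend on GC content was taken out of each library by offsets, 136 genes rose (1.22%) and 88 fell (0.787%) in sgScramble mice. Of the calls before this correction, 111 of the 517 higher and 75 of the 586 lower genes were still called in the same direction. Whether the trend arose in the cells or in the libraries was not tested. Of the 24 named genes, 20 passed after this correction; Jund, C1qc, Csrnp1 and Gtpbp3 did not. With the trends on GC content and coding length both taken out, 17 passed, and Macf1 (0.58, edgeR adjusted p = 0.115), Ahnak (1.74, adjusted p = 0.0884) and Syne2 (0.78, adjusted p = 0.05795) were lost as well.

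**Figure D3:**
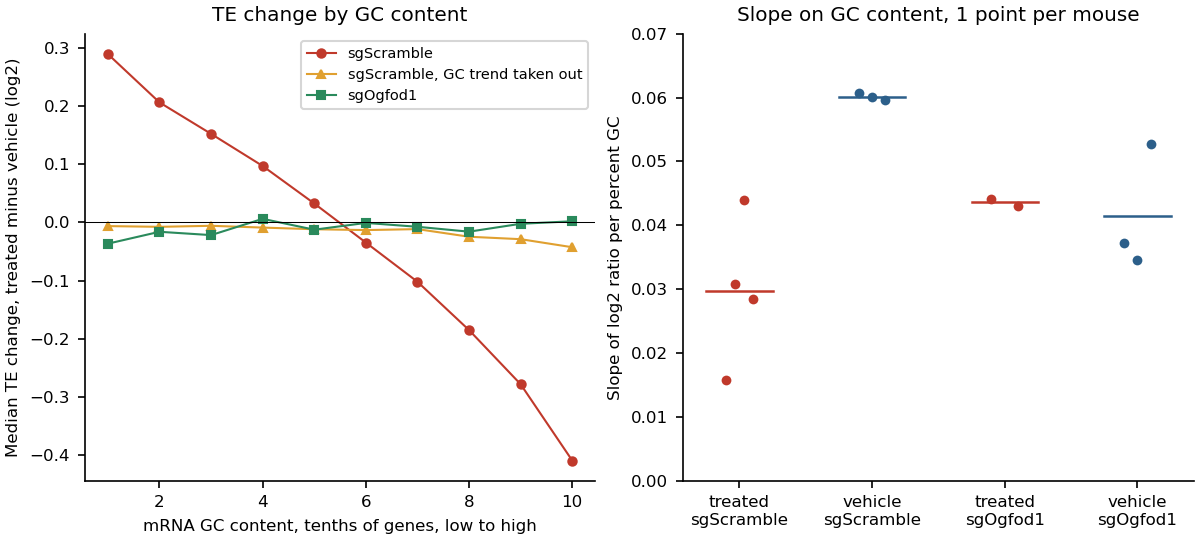
Left, median log2 change of translation efficiency in deciles of mRNA GC content, for sgScramble mice, the same after the GC trend was taken out, and sgOgfod1 mice. Right, the slope of the log2 footprint-to-RNA ratio on GC content in each mouse, with group means as bars; the 4 treated sgScramble mice lie below all 3 vehicle sgScramble mice.

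Coding length was examined next. The Spearman rho between the change of translation efficiency and coding length was 0.0887 over 11123 genes. The per-mouse slopes on coding length overlapped between the groups, as given below. The lists of very long proteins below were chosen with earlier results of these data known, so their shares support no conclusion by themselves. Among 36 very long cytoskeletal linkers and scaffolds, 19 rose (52.8%, against 4.63% of all genes tested) and 0 fell. Their median change was 0.54, against -0.01 over all genes tested. Flna, the actin crosslinker filamin A, had 1790, 2081, 1988 and 1550 CPM of footprints in treated mice, against 788, 808 and 802 CPM in vehicle mice, while its RNA did not pass the test. Its ratios of 0.847 to 0.928 in treated mice lay above those of 0.416 to 0.473 in vehicle mice (1.00 ± 0.13, edgeR adjusted p = 9.44e-05). Cep350, a centrosomal protein, rose by 1.00 ± 0.13 with an RNA change of -0.99, and Akap9, a kinase anchor at the Golgi, rose by 0.88 ± 0.12. Akap9 shares exonic sequence with a coding gene on the opposite strand.

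A second list of large proteins, 35 ubiquitin ligases and chromatin regulators, had 16 higher (45.7%, against 4.63% of all genes tested) and 0 lower. Its median was 0.34. Herc1, a giant ubiquitin ligase, had ratios of 1.07, 1.21, 1.12 and 1.202 in treated mice, against 0.742, 0.585 and 0.668 in vehicle mice (0.80 ± 0.12, edgeR adjusted p = 0.000353). Herc1 also shares exonic sequence with a coding gene on the opposite strand. Prkdc, the catalytic subunit of the DNA-dependent protein kinase, had ratios of 1.01 to 1.44 in treated mice and 0.609 to 0.816 in vehicle mice (0.88 ± 0.145, edgeR adjusted p = 0.000785). Atm and Smg1, kinases of the DNA damage response and of nonsense-mediated decay, changed by 0.79 and 0.86. The count of this list was 9 or 10 without vehicle replicate 3 or 5.

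At an unadjusted p under 0.05, 1 of the 36 and 2 of the 35 were lower, and DESeq2 called 0 lower in either list. With the GC trend taken out, 15 of 36 and 8 of 35 members were higher, with medians of 0.49 and 0.32. In sgOgfod1 mice, which share no animal with this comparison, the medians were 0.43 and 0.27. With the trend on coding length taken out instead, the medians were 0.11 and 0.01, and 2 and 5 members were lower, beside 12 and 5 higher. With both trends taken out, 5 of 36 and 0 of 35 were higher and 0 were lower, with medians of 0.15 and 0.00476. Without the mouse term 8 and 5 were higher, and with genes of every type in the fit 14 and 9. Over all genes, the decile of longest reading frames (1180 codons or more) had 13% of genes higher and a median of 0.16. That median was 0.14 with the GC trend taken out and 0.16 in sgOgfod1 mice. The median ratio of this decile in each mouse overlapped between the groups. It was 0.853, 0.873, 0.779 and 0.952 in treated mice, against 0.872, 0.748 and 0.772 in vehicle mice. The slope of the ratio on coding length, taken per mouse, overlapped between the groups (0.0569 ± 0.062 in treated mice and 0.0159 ± 0.0458 in vehicle mice, SD, n = 4 and 3; exact permutation p = 0.514).

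**Figure D4:**
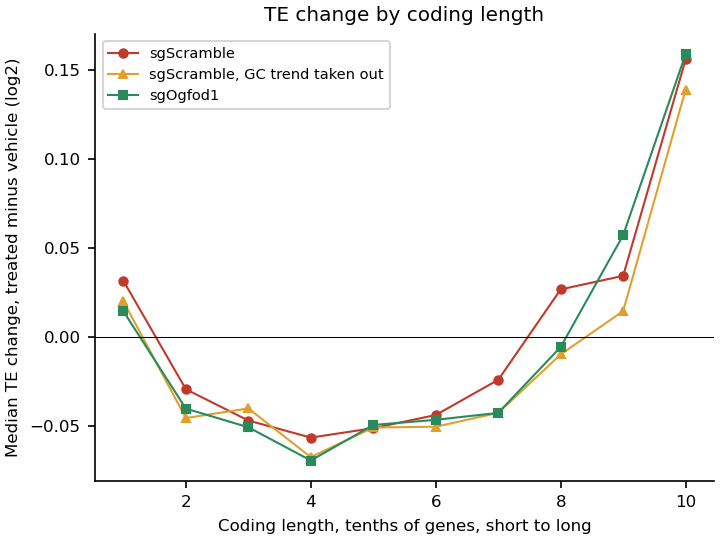
Median log2 change of translation efficiency in deciles of coding length, for sgScramble mice, the same after the GC trend was taken out, and sgOgfod1 mice. The decile of longest reading frames has the highest median in all 3 series, 0.16, 0.14 and 0.16.

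In the lists of ribosomal protein, other TOP and initiation factor mRNAs, every call was a rise. Of 82 cytosolic ribosomal proteins tested, 11 rose (13.4%, against 4.63% of all genes tested) and 0 fell, with a median change of 0.23. More footprints were called for 56 of the 82 (68.3%, against 10% of all genes) and more RNA for 1 (1.22%, against 9.91%). The starts of the 6 ribosomal protein and 3 other TOP mRNAs that rose and matched a RefSeq start are printed to show the TOP tract, a C followed by at least 4 pyrimidines beginning within 5 bases of the annotated start. Each line holds 10 bases before the RefSeq start (GRCm38.p6) and 20 from it onwards, on the strand of the gene, with the tract in capitals; Rpl5, Rpl10 and Eef1b2 have no such tract in this window.
Rpl22l1 (chr3:28805498-28805527, plus strand): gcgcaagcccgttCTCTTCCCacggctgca
Rpl35 (chr2:39005112-39005141, minus strand): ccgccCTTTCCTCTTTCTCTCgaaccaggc
Rpl14 (chr9:120571507-120571536, plus strand): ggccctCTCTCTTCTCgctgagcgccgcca
Rps24 (chr14:24490668-24490697, plus strand): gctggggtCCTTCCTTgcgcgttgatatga
Eef1a1 (chr9:78481705-78481734, minus strand): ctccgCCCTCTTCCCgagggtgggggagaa
Nap1l1 (chr10:111473217-111473246, plus strand): gctctcgggtCTTTTTTagcgccatctgct
Rpl5 (chr5:107900518-107900547, plus strand): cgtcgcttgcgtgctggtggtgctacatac
Rpl10 (chrX:74270806-74270835, plus strand): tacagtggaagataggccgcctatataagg
Eef1b2 (chr1:63176821-63176850, plus strand): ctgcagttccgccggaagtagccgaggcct

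Such a tract, searched on the gene's strand, was found at 18.5% of 27025 RefSeq promoters and at 29 of 61 matched ribosomal protein genes (47.5%). Of the ribosomal and other TOP mRNAs, 0 were lower at an unadjusted p under 0.05 in edgeR, and DESeq2 called 18 and 8 higher and 0 lower. Within the ribosomal protein list the median change was 0.23 with a tract and 0.21 without, and over all matched genes 0.01 and -0.01. The windows depend on the annotated start, so these shares describe the annotation only.

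Rpl35, a protein of the large subunit, had ratios of 7.17, 7.82, 7.61 and 6.90 in treated mice, against 4.15, 4.83 and 5.60 in vehicle mice. Its footprints were 586 to 715 CPM in treated mice and 355 to 409 CPM in vehicle mice, and its translation efficiency changed by 0.61 ± 0.12 (edgeR adjusted p = 0.00226). Rpl22l1, a paralog of Rpl22, changed by 0.82 ± 0.14 (adjusted p = 0.000785) and Rpl21 by 0.80 ± 0.14 (adjusted p = 0.00146). Footprints of ribosomal proteins are split with many processed pseudogenes, which makes single values uncertain, and Rpl35 and Rpl5 also overlap coding genes on the opposite strand. The list had 6 higher and 0 lower with the GC trend taken out, with a median of 0.32 (Rpl22l1 was then at an edgeR adjusted p of 0.0517), and a median of 0.50 in sgOgfod1 mice. Its count was 3 without vehicle replicate 2, 7 or 5 without treated replicate 1 or 2, and 24 without treated replicate 5; without the mouse term it was 0 at a median of 0.21, with limma 2, and with genes of every type in the fit it was 5.

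Of 21 other TOP mRNAs, 5 rose (23.8%, against 4.63% of all genes tested) and 0 fell, with a median of 0.21. Npm1, the nucleolar chaperone nucleophosmin, had ratios of 2.12, 2.25, 2.19 and 1.73 in treated mice, against 1.14, 1.34 and 1.31 in vehicle mice (0.71 ± 0.12, edgeR adjusted p = 0.000987). Eef1a1, which brings charged tRNA to the ribosome, had ratios of 8.69 to 9.77 in treated mice and 4.94 to 7.26 in vehicle mice (0.64 ± 0.14, adjusted p = 0.00617). Whether footprints of Npm1 and Eef1a1 are split with pseudogenes, like those of ribosomal proteins, was not examined, so these values are uncertain too. The list's count was 2 without vehicle replicate 2 or with limma, 3 with genes of every type in the fit, and 0 without the mouse term.

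Of 29 initiation factors, 8 rose (27.6%, against 4.63% of all genes tested) and 0 fell. At an unadjusted p under 0.05 in edgeR 1 was lower, and DESeq2 called 8 higher and 0 lower. Eif3a, the largest subunit of the eIF3 scaffold, had ratios of 2.12 to 2.33 in treated mice and 1.39 to 1.44 in vehicle mice (0.63 ± 0.11, edgeR adjusted p = 0.00134), and Eif4e, the cap-binding protein, changed by 0.47 ± 0.12. With the GC trend taken out 1 of the 29 was higher, Eif3a, and without the mouse term or with limma 2 were. The count was 3 without vehicle replicate 2 or 5, 4 without vehicle replicate 3, 5 without treated replicate 1, 2 or 5, and 4 with genes of every type in the fit. Elongation and termination factors had 1 of 23 higher (Abce1, which recycles ribosomes), or 4.35%. Aminoacyl-tRNA synthetases had 2 of 37 higher (Iars and Qars, the isoleucine and glutamine enzymes), or 5.41%. Both shares were near the 4.63% higher over all genes tested, and no member was lower in either list. At an unadjusted p under 0.05 in edgeR, 3 factors were higher and 0 lower, and 6 synthetases higher and 4 lower. The share of all genes at that threshold was not taken, so these counts have no background. The median change of the synthetases was -0.07. The counts of the 2 lists were 0 and 1 (Qars) with the GC trend taken out. Without the mouse term or vehicle replicate 3 or 5 they were 0 and 0.

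**Figure D5:**
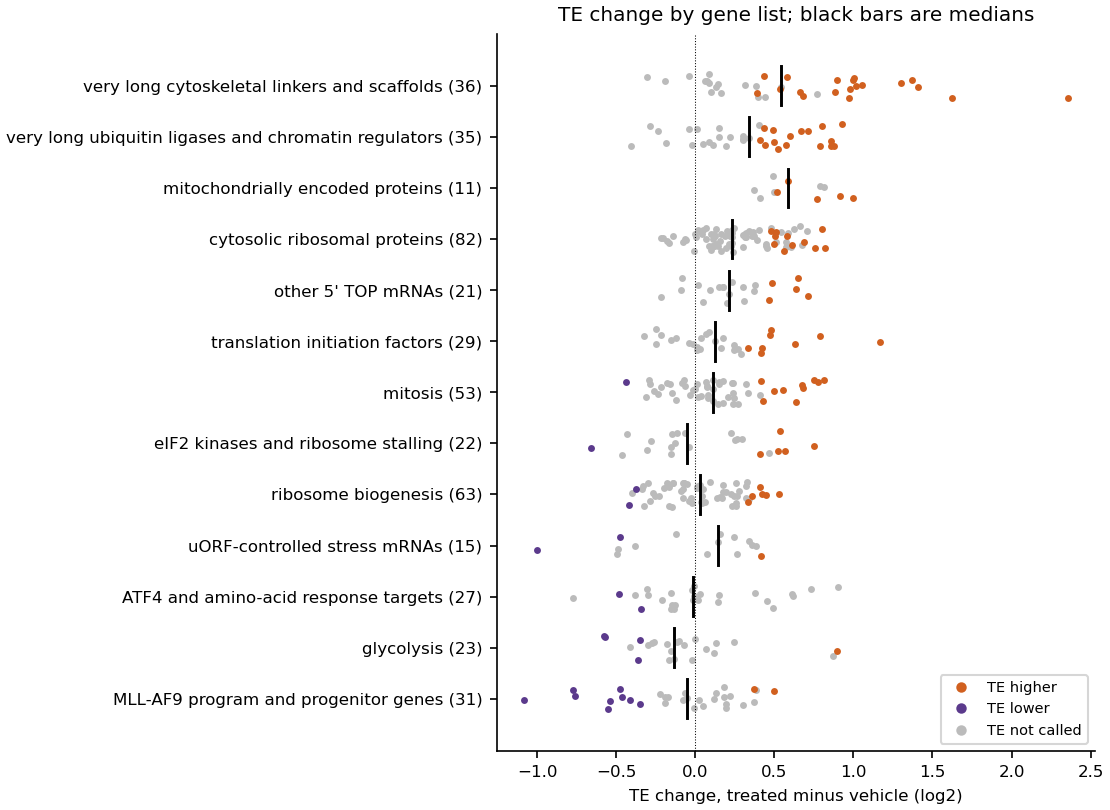
Log2 change of translation efficiency of the tested members of 13 gene lists, 1 point per gene, with the number tested in brackets and the median as a black bar. The 2 lists of very long proteins, with medians of 0.54 and 0.34, and the mitochondrially encoded proteins, with 0.58, lie furthest to the right.

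Atf4, the master transcription factor of the amino acid response, had ratios of 0.2996, 0.451, 0.411 and 0.339 in treated mice, against 0.237, 0.317 and 0.331 in vehicle mice. The groups overlapped, and the change of 0.36 ± 0.16 did not pass the test (edgeR adjusted p = 0.151), while its footprints alone rose by 0.60 ± 0.16 (adjusted p = 0.0162). Atf5 had a value of -0.49 ± 0.38 (adjusted p = 0.445) and Ppp1r15a, the eIF2 phosphatase subunit, of -0.50 ± 0.54 (adjusted p = 0.604), neither past the threshold; both share exonic sequence with genes on the opposite strand. Of 15 mRNAs with regulatory upstream reading frames, 1 rose (Eif5) and 2 fell (Cebpb and Cebpa), together 20% of the list, against 9.87% of all genes tested. None of the 15 was called with the GC trend taken out or without the mouse term, and 1 was lower and 0 higher without any 1 vehicle mouse.

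Cebpb, a myeloid transcription factor, had ratios of 0.411, 0.526, 0.772 and 0.509 in treated mice, against 1.08, 1.09 and 1.05 in vehicle mice (-1.002 ± 0.18, edgeR adjusted p = 0.00272). Cebpb overlaps a coding gene on the opposite strand. Its mRNA has a GC content of 67.2%, and the change was -0.35 ± 0.11 with the GC trend taken out (adjusted p = 0.0916). Of 27 ATF4 targets, 2 fell (7.41%, against 5.24% of all genes tested) and 0 rose. None rose at an unadjusted p under 0.05 in edgeR or with DESeq2 either. Those that fell were Slc7a5, the leucine transporter (-0.48 ± 0.12), whose RNA rose, and Herpud1 (-0.34 ± 0.11). Neither passed with the GC trend taken out (-0.26 for both, edgeR adjusted p = 0.275 and 0.187), and 0 of the 27 were lower without the mouse term or vehicle replicate 3. Of 22 eIF2 kinases and ribosome rescue factors, 5 rose and 1 fell, together 27.3%, against 9.87% of all genes tested. Among the 5 were Ascc3, which splits collided ribosomes (0.75 ± 0.14), and Nemf, which extends stalled chains (0.52 ± 0.14). Without treated replicate 1 or vehicle replicate 5, 3 were higher. Only Ascc3 was higher with the GC trend taken out, and Nemf had 0.298 (edgeR adjusted p = 0.182). The count was 1 with limma or with genes of every type in the fit, and 0 without the mouse term or with the GC and length trends both taken out.

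The diet lacked leucine, isoleucine and valine, and the share of each in the protein was set against the ratio. The per-mouse slope on the isoleucine share differed by 0.0372 per percent between treated and vehicle mice without overlap (exact permutation p = 0.0571, the smallest possible), and by -0.00122 with GC content held constant (exact permutation p = 0.857). For leucine the difference was -0.0211, and -0.00997 with GC content held constant, both without overlap (exact permutation p = 0.0571). For valine it was -0.0138, and -0.00704 with overlap (exact permutation p = 0.229). After Benjamini-Hochberg adjustment over the 5 features, p for each of the 3 amino acids was 0.0714 before GC content was held constant. In sgOgfod1 mice the differences for leucine, isoleucine and valine were 0.00319, 0.00331 and 0.00646. With GC content held constant they were 0.00247, 0.00687 and 0.00601. The leucine slopes there were -0.0806 and -0.0799 in treated mice, within the vehicle range of -0.0909 to -0.0755.

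All 11 mitochondrially encoded mRNAs tested had a positive change, and 5 rose (45.5%, against 4.63% of all genes tested), with a median of 0.58. mt-Nd4, a complex I subunit, had 204 to 320 CPM of RNA in treated mice and 358 to 417 CPM in vehicle mice, and 177 to 251 CPM of footprints in treated mice and 163 to 183 CPM in vehicle mice (0.99 ± 0.25, edgeR adjusted p = 0.0323). Mitochondrial mRNA took 0.548 to 0.695% of coding RNA in treated mice and 0.874 to 0.994% in vehicle mice. The annotation of mt-Nd4 overlaps mt-Nd4l. None of the 11 was called with the GC trend taken out, nor without vehicle replicate 2 or 5 or treated replicate 1, nor without the mouse term or with limma, and 1 was called without vehicle replicate 3 or treated replicate 2 or 3 or with genes of every type in the fit; the median was 0.28 with the GC trend taken out and -0.15 in sgOgfod1 mice.

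Of 53 mitosis genes, 10 rose and 1 fell, together 20.8%, against 9.87% of all genes tested. RNA fell for 29 (54.7%, against 9.87% of all genes) and footprints for 20 (37.7%, against 8.21%). Mki67, the proliferation marker, had 231 to 271 CPM of RNA in treated mice and 345 to 362 CPM in vehicle mice, with footprints of 736 to 972 CPM in treated mice and 640 to 762 CPM in vehicle mice (0.75 ± 0.12, edgeR adjusted p = 0.000533). With the GC trend taken out, or without the mouse term, 4 of the 53 were higher, and 1 with the GC and length trends both taken out.

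Of 31 genes of the MLL-AF9 and progenitor program, 2 rose and 9 fell, together 35.5%, against 9.87% of all genes tested. Without vehicle replicate 3 or 5 or treated replicate 1, 5 fell. Without vehicle replicate 2 or treated replicate 2, 6 fell. Hoxa10, a homeobox factor kept on by the fusion, had ratios of 0.460, 0.393, 0.381 and 0.451 in treated mice, against 0.713, 0.730 and 0.707 in vehicle mice (-0.78 ± 0.15, edgeR adjusted p = 0.00282). Il3ra, the interleukin 3 receptor subunit, had ratios of 1.29 to 1.76 in treated mice and 2.74 to 3.65 in vehicle mice (-1.08 ± 0.21, adjusted p = 0.00294). With the GC trend taken out 1 of the 31 was lower, Hoxa10, at -0.69 ± 0.16 (adjusted p = 0.0296), and without the mouse term 1 was lower.

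Fth1, the ferritin heavy chain, whose mRNA carries an iron-responsive element, rose in both assays and in the ratio. Its ratios were 0.704, 0.793, 0.645 and 0.492 in treated mice, against 0.408, 0.400 and 0.441 in vehicle mice (0.65 ± 0.13, edgeR adjusted p = 0.00332), and the change was 0.75 ± 0.13 with the GC trend taken out. The transferrin receptor Tfrc is in the same list of iron-responsive and frameshift-controlled mRNAs. It changed by 0.37 ± 0.12 (edgeR adjusted p = 0.0462). With the GC trend taken out it changed by 0.0842 and did not pass (edgeR adjusted p = 0.760). No other member of the 16 in this list was called, so that 12.5% were, against 9.87% of all genes tested. Without the mouse term or with genes of every type in the fit, 0 were called.

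In other groups RNA or footprints were called for many members. Over all genes tested, RNA was called higher for 9.91% and lower for 9.87%, footprints higher for 10% and lower for 8.21%, and translation efficiency was called for 9.87%. Of 32 p53 targets, RNA rose for 17 (53.1%) and footprints for 16 (50%), 14 of them in both assays, while translation efficiency rose for 1 (3.12%; Ccng1, 0.46 ± 0.14). Of 25 cholesterol synthesis genes, RNA fell for 11 and footprints for 16, 9 of them in both assays, and translation efficiency fell for 2 (8%; Mvd and Srebf2). Of 36 proteasome subunits, RNA rose for 12 and footprints for 18, 9 of them in both, with 1 subunit higher and 1 lower in the ratio (5.56%). No member of these 3 lists was called in the ratio with the GC trend taken out or without the mouse term.

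Of 29 interferon-stimulated genes, RNA rose for 10 and footprints for 9, 7 of them in both, with 2 ratios higher and 2 lower (13.8%). Of 50 replication-dependent histones, which lack a poly(A) tail and resemble each other closely, footprints fell for 43 (86%) and RNA for 3, and 3 ratios were higher and 2 lower (10%). In these lists the shares with a called ratio were near that of all genes. The counts with the GC trend taken out were 1 higher and 1 lower among the interferon-stimulated genes, and 2 higher and 1 lower among the histones.

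In metabolism, glycolysis had 1 of 23 higher (Pfkm) and 4 lower, together 21.7%, against 9.87% of all genes tested. Among the 4 were the lactate exporter Slc16a3 (-0.58 ± 0.10) and the liver-type phosphofructokinase Pfkl (-0.58 ± 0.11). None of the 23 was lower with the GC trend taken out (Slc16a3 at an edgeR adjusted p of 0.0549 and Pfkl at 0.0954), none was without the mouse term, and 2 were without any 1 vehicle mouse or treated replicate 1 or 2. BCAA transport and breakdown had 1 of 25 higher (Mccc1, an enzyme of leucine breakdown, 0.68 ± 0.15) and 1 lower (Bckdha, of the branched-chain keto acid dehydrogenase, -0.47 ± 0.11); Bckdha did not pass with the GC trend taken out (-0.18, edgeR adjusted p = 0.392). The mTORC1 and amino acid sensing list had 1 of 36 higher, the S6 kinase Rps6kb1 (0.44 ± 0.12), and 0 lower; Rps6kb1 did not pass with the GC trend taken out (0.136, edgeR adjusted p = 0.699), nor was any member higher without any 1 vehicle mouse. Nuclear oxidative phosphorylation had 4 of 79 higher and 1 lower, and mitochondrial ribosomal proteins 2 of 78 higher and 3 lower. These became 2 and 0, and 0 and 1, with the GC trend taken out. BCAA transport and breakdown, mTORC1 and amino acid sensing, and mitochondrial ribosomal proteins had 8%, 2.78% and 6.41% called, under the 9.87% of all genes. Selenoproteins and the BCL2 family had 0 of 20 and 0 of 14 called in either direction by edgeR; at an unadjusted p under 0.05, 3 selenoproteins were higher and 2 lower, and 2 BCL2 family members were higher. DESeq2 called 1 selenoprotein higher and 0 BCL2 family members.

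Ribosome biogenesis had 6 of 63 higher and 2 lower, DNA replication 4 of 48 higher and 2 lower, and the unfolded protein response and chaperones 5 of 30 higher and 1 lower, against 4.63% higher and 5.24% lower over all genes tested. These counts were 1 and 0, 1 and 0, and 0 and 0 with the GC trend taken out. Without the mouse term 1 member of the 3 lists was called, in DNA replication. Without vehicle replicate 5 or treated replicate 1, 1 member of each list was higher, and without vehicle replicate 2, 3 and 0, 2 and 0, and 0 and 0 were higher and lower. Integrins and adhesion genes had 2 of 25 higher, Fn1 and the integrin Itga4, and 2 lower, and with the GC trend taken out Fn1 alone was called. Among markers of other cells, 1 of 16 neutrophil genes was higher and 2 lower, and 1 of 12 macrophage genes was higher and 1 lower. Erythroid markers had 1 of 9 higher and 1 lower, megakaryocyte markers 1 of 5 lower, and basophil and mast cell markers 2 of 5 lower. The 5 stromal markers tested, and the single B cell and T or NK cell markers, were not called.

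In sgOgfod1 mice the same test called 27 genes higher and 10 lower (0.331% of those tested, 0.242% higher and 0.0895% lower), with 2 treated and 3 vehicle animals. Of the 517 genes that rose in sgScramble mice, 403 (77.9%) had a positive change there and 17 were called higher. Of the 586 that fell, 382 (65.2%) had a negative change there and 6 were called lower. The median change in sgOgfod1 mice was 0.172 for the genes that rose, -0.0783 for those that fell and -0.0105 over all genes tested. Snx30 changed by 1.93 ± 0.24, H2-Q10 by -2.91 ± 0.34 and Flna by 0.91 ± 0.16 in sgOgfod1 mice (edgeR adjusted p = 0.000151, 0.00361 and 0.00361), whereas Syne2 had 0.00 ± 0.21. Snx30 overlaps a pseudogene, and short footprints cannot tell H2-Q10 from its near-identical relatives. Both limits hold in either genotype, so these 2 values are uncertain here too. Over all genes the changes in the 2 genotypes had a rho of 0.176, and 0.248 with the GC trend taken out. The difference between genotypes passed the test for 5 genes (0.0447%; 0.0268% with a more positive and 0.0179% with a more negative change in sgOgfod1 mice), which are given because the count is small and are not among the genes above. The treatment effect in sgOgfod1 minus that in sgScramble mice was 1.49 for the tubulin Tubb2a, 1.26 for Scaf1 and 1.14 for Nbeal2. It was -1.13 for Anp32a and -1.31 for the chromatin protein Hmgb1.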

How the data were processed

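The deposited tables give, for each gene, the raw count of reads in every library, as made by the authors. The submitters' processing notes name featureCounts, STAR, Bowtie2, cutadapt and SAMtools, and the builds GRCm38 and mm10. Versions, strand setting and the handling of multiply mapped reads are not given in the sources used here. Gene types, coordinates, coding lengths and GC content (transcript with the longest coding sequence of known start) came from GENCODE M21, and 260 listed genes were not in it. No deposited column was without a sample (0 columns).

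Counts of the 12 mice with both assays were fitted with edgeR 4.0.16 in R 4.3.3 (robust quasi-likelihood, TMM within each assay, filterByExpr in both assays, mouse as block, 8 residual degrees of freedom); translation efficiency is the assay-by-group term, and p-values were adjusted by the Benjamini-Hochberg method over 11176 genes. SEs were derived from the quasi-likelihood statistic. Ratios are footprint over RNA CPM with 0.5 added to both. GC and length trends were taken out by lowess offsets (span 0.3), chosen after the data were seen. On simulated data the fit called 87 of 100 genes changed by 1 on the log2 scale, 23 of 100 changed by 0.5, and 3 of 10976 unchanged genes. The simulated counts were independent draws from 1 rate per gene and assay. They held no mouse effect shared by the assays and no GC trend, and the changed genes had at least 5 CPM in both assays. The simulation therefore cannot give the share of false or missed calls in the real data. limma 3.58.1 and DESeq2 1.42.0 served as alternatives.

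Footprints and RNA were paired within a mouse by the library number in the labels. After group means were removed, they correlated at 0.0921 to 0.356 in the same mouse, above every value with another mouse of the group. No replicate pair agreed within sampling noise (chi-square per degree of freedom at least 30 in RNA and 3.17 in footprints). P-values measure the spread between these mice only.

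Named genes were the 12 largest changes in each direction among called genes with at least 5 CPM in both assays and ratios that did not overlap, without predicted genes, up to 4 members of smallest p per list, and Atf4, Atf5, Ppp1r15a and Ogfod1. The values of 1 gene among the 12 largest rises are not reported here, although it is counted in the totals. Members, lists and rules were chosen with earlier results of these data known, and the lists support no conclusion by themselves. Counts at an unadjusted p under 0.05 are given without the share of all genes at that threshold and only describe the lists.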

Additional observations from a re-analysis of the deposited data

Results flagged for a closer look

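Small nuclear RNA genes, which were outside the tests on protein-coding genes, took at least 5.12% of footprint counts in treated sgScramble mice (up to 9.03%), against 1.90 to 3.13% in vehicle sgScramble mice, so that every treated mouse lay above every vehicle mouse. In sgOgfod1 mice the share was 3.67 and 1.4% in treated mice and 1.76 to 2.54% in vehicle mice. Its part in the results was not tested.

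The log2 ratio of Zfp763 in treated replicate 2 was 0.11, far from the other 3 treated mice; the ratios on a linear scale were 0.684, 1.08, 0.723 and 0.723 in treated mice, against 0.346, 0.308 and 0.376 in vehicle mice. It was the 1 sample of this kind in 33 groups of 4 that were examined, and chance marks about 1 group in 20.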

How the results depend on the processing

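Counts of genes with higher and lower translation efficiency in sgScramble mice were 517 and 586. Both scalings (DESeq2 size factors, TMM over both assays), the stricter and looser filters, the 7 sgScramble mice alone, the length trend and DESeq2 kept both counts within 1.5 times. With all gene types 191 were higher; with limma on the ratio of each mouse 202 and 273; with the GC trend taken out 136 and 88, and with GC and length 125 and 109. The mouse term is a block that pairs the 2 assays of a mouse: with no replicate block 63 and 58 were called, and with all 23 RNA libraries unpaired 6 and 9. Replicate numbers are shared by treated and vehicle mice but mark no known pairing (ratio deviations of same-numbered mice correlated at -0.1, 0.225 and 0.0618); adding them as a replicate block gave 243 and 236, and 107 and 62 with the GC trend taken out. Leaving out 1 mouse gave 223 to 571 higher and 232 to 657 lower, 1066 to 1930 RNA calls and 1069 to 1844 footprint calls. In sgOgfod1 mice, 37 calls became 236 without the filter and 67 with DESeq2, and the 5 genotype differences became 181 without the filter, 24 at 5 CPM or more, 40 with DESeq2 and 1 with the GC trend taken out. The isoleucine slope reversed to -0.00122 with GC content held constant.

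Of the 24 genes with the largest changes, every one kept its call with DESeq2, both scalings, all gene types, the filters, the 7 mice and the length trend, and without each treated mouse or vehicle replicate 3; 21 kept it with limma, 20 with the GC trend taken out, 17 with GC and length, 15 with the replicate block and the GC trend taken out, and 13 with no replicate block. Reversed signs with all 23 RNA libraries unpaired were Cd163 (-0.76), Srebf2 (0.0586), Fth1 (-0.18), Ccng1 (-0.0639), Ifitm3 (-0.55), Trim30a (-0.03503), Chil3 (-0.13) and Ogfod1 (0.18). With the GC trend taken out Cebpa was 0.002173, and with GC and length Cebpa was 0.04303, Usp9x -0.014 and Atf5 0.002035. Ogfod1 (-0.03 ± 0.21, not called) ranged from -0.15 to 0.11 when 1 mouse was left out. The causes were not tested. Footprint depth limits genes near the filter, and 4 and 3 mice limit the permutation tests.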
